A study of Mus musculus with 35 samples.

Results

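The libraries described here compare memory CD8 T cells from the brains of aged female mice with and without a short chemical stimulus. These are the 10 libraries whose titles name an aged female brain, of 35 libraries in the series: replicates 23 to 27 were labelled as stimulated and replicates 13 to 17 as unstimulated, and the numbers come from the sample titles. All 10 came from C57BL/6 mice, and CD3e+CD8+CD44hiCD62Llo cells were sorted from the tissue. The stimulated cells were held with phorbol myristate acetate (PMA) and ionomycin for 2 h in a water bath at 37 °C before lysis. The labels do not say whether the unstimulated cells were warmed in the same way, what age "aged" stands for, or whether each library is 1 animal or a pool. The p-values below therefore measure the spread between these libraries, which may be technical in part. Aged male mice of the same strain gave the other stimulated sets used for comparison, brain (6 unstimulated and 4 stimulated libraries) and spleen (5 and 5), sorted and treated alike.

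CD8 T cells that are CD44hi and CD62Llo have met antigen before and include the resident memory cells that stay in tissues such as the brain. PMA activates protein kinase C and ionomycin lets calcium into the cell, so that the pair replaces the signal from the T cell receptor and drives the transcription factors AP-1, NF-kB and NFAT. The first genes to respond, the immediate early genes, need no new protein, and cytokine genes such as Ifng and Tnf follow.

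The 2 sets of libraries differed in their make-up before any single gene was tested. Genes encoded by the mitochondrial genome took 8.48%, 9.83%, 11.5%, 10.1% and 12.8% of the counts in unstimulated replicates 13 to 17, and 42.1%, 66.0%, 59.6%, 55.5% and 69.7% in stimulated replicates 23 to 27. The groups did not overlap, with means of 10.5% ± 1.65 (SD, n = 5) and 58.6% ± 10.8 (SD, n = 5; two-sided exact permutation test, adjusted p = 0.0159 over 6 measures, where the smallest unadjusted p of this design is 0.00794). Total counts were 9655634, 14866050, 6654543, 10970566 and 12591901 in the unstimulated libraries and 4920738, 6062158, 9203922, 3954801 and 2216762 in the stimulated ones. Stimulated replicate 25 lay above unstimulated replicate 15, and the means of 10947739 and 5271676 counts gave an exact permutation adjusted p of 0.019. The number of genes with at least 1 count was 12706, 10009, 6456, 8611 and 9987 without the stimulus, and 4211, 6149, 6523, 6769 and 4239 with it (exact permutation test, adjusted p = 0.0238). Ribosomal protein genes fell as a share of all counts, from 11.6% ± 0.89 to 5.51% ± 2.04 (SD, n = 5 each, exact permutation adjusted p = 0.0159). Of the counts outside mitochondrial genes they took 13% ± 1.04 and 13.1% ± 1.48 (SD, n = 5 each), a difference of 0.0787 percentage points that was within the spread (exact permutation p = 0.913).

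**Figure D1:**
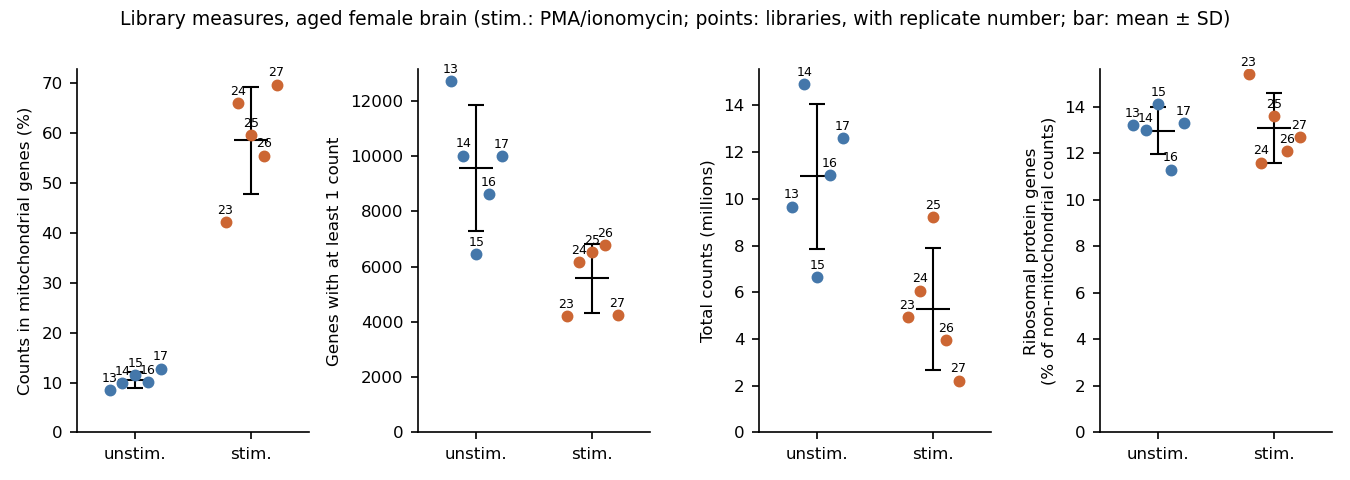
Each panel plots the 10 libraries of the aged female brain, unstimulated in blue and stimulated in orange, with the replicate number beside each point and the mean ± SD as a bar. The panels show the percent of counts in mitochondrially encoded genes, the number of genes with at least 1 count, the total counts and the percent of non-mitochondrial counts in ribosomal protein genes, where the groups overlap.

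Levels below are CPM, the counts of a gene set against the library size, scaled with TMM (trimmed mean of M values, which aligns the bulk of the genes). The TMM factors ran from 1.48 to 1.78 without and from 0.48 to 0.78 with the stimulus, so that scaled CPM need not add up to the same total in each library. With library totals in place of TMM, the median over all genes of the log2 fold change moved from -0.41 to -1.81, a shift of -1.40. In bulk libraries, fewer cells that hold a transcript and fewer copies in each cell cannot be told apart. The cells carried the sorted markers in the unstimulated libraries: Cd3e stood at 210, 209, 383, 191 and 275 CPM and Cd8a at 235, 365, 231, 468 and 381 CPM. In the stimulated libraries Cd3e stood at 23.5, 127, 224, 109 and 32.3 CPM, and Cd8a at 3.19, 163, 59.1, 131 and 507 CPM. Neither gene passed the test, and the stimulated values spread over a wider range for both.

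The threshold was an adjusted p of 0.05, and 384 of 6305 genes tested passed it (6.09%). Of these, 121 were higher (1.92%) and 263 lower (4.17%) in the stimulated libraries, and 989 had an unadjusted p under 0.05. With library totals the split was 49 higher and 487 lower. A stricter filter, 10 counts or more in 8 or more libraries, left 2665 genes, and there the balance turned to 102 higher and 12 lower, of which 66 and 5 were also among the 121 and 263. Without stimulated replicates 26 and 27, whose titles are written in another style (that of the spleen libraries), all 121 higher and all 263 lower genes kept their direction, and 48 and 36 of them passed. The count moved with single libraries: without unstimulated replicate 13, 14, 16 or 17 the count fell to 51, 53, 49 and 68, and without replicate 15 it rose to 596. Leaving out 1 of stimulated replicates 23 to 27 gave 310, 251, 262, 515 and 194. Across the 10 fits, 31 higher and 9 lower genes passed every time. The values of the 2 groups did not overlap for 108 of the 121 higher genes and 262 of the 263 lower genes, where non-overlap held for 241 (3.82%) and 602 (9.55%) of all genes tested.

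**Figure D2:**
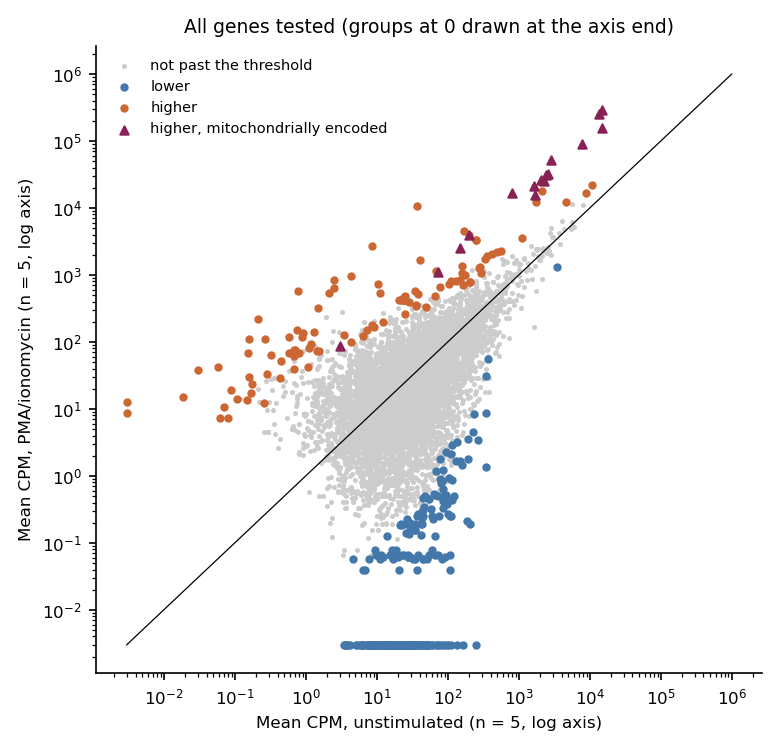
Each point is 1 of the 6305 genes tested, with its mean CPM in the 5 unstimulated libraries on the horizontal log axis and in the 5 stimulated libraries on the vertical log axis. The mitochondrially encoded genes (triangles) lie above the diagonal as a group, and 146 of the 263 lower genes lie on the bottom line, where no stimulated library had a count.

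Transcription factors of the immediate early set were higher after the stimulus. Of 22 tested members, 10 were called higher and none lower, and 20 were above 0 and 2 below. The median log2 fold change was 2.23 against -0.41 for all genes tested. The 10 were the AP-1 subunits Fos, Fosb, Fosl2, Jun and Jund, the zinc finger factors Egr2 and Egr3, and the orphan nuclear receptors Nr4a1, Nr4a2 and Nr4a3. In 12 of the 22 the 2 groups did not overlap. The summed CPM of the whole list ran from 1520 to 3880 without the stimulus and from 9370 to 15100 with it.

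Nr4a3 (ENSMUSG00000028341, chr4:48045153-48086447), a receptor without a known ligand that is induced by T cell receptor signals, stood at 169, 379, 370, 433 and 453 CPM in unstimulated replicates 13 to 17 and at 1260, 2330, 2780, 1850 and 1270 CPM in stimulated replicates 23 to 27. Every stimulated library was above every unstimulated one. The log2 fold change was 2.40 ± 0.42 (SE, adjusted p = 0.0083), and it passed in all 10 leave-one-out fits, with adjusted p up to 0.036. Nr4a1, its close relative and a common reporter of recent receptor signalling, stood at 181, 645, 901, 417 and 708 CPM against 1960, 1680, 2580, 2840 and 2370 CPM (log2 fold change 2.00 ± 0.43, adjusted p = 0.022). Its groups did not overlap either, and unstimulated replicate 13 was the lowest of its group for both receptors. Nr4a2 stood at 165, 330, 307, 250 and 355 CPM against 2480, 301, 1380, 1040 and 1430 CPM (log2 fold change 2.24 ± 0.53, adjusted p = 0.03). Here stimulated replicate 24 lay inside the unstimulated range.

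Fos, the partner of Jun in AP-1, stood at 57.8, 154, 295, 158 and 128 CPM and at 1100, 474, 1610, 924 and 1210 CPM with the stimulus (log2 fold change 2.74 ± 0.56, adjusted p = 0.02). Fosb stood at 36.2, 30.1, 17.3, 55.6 and 53.1 CPM and at 180, 366, 963, 932 and 177 CPM (log2 fold change 3.77 ± 0.78, adjusted p = 0.02). For both, all stimulated libraries were above all unstimulated ones. Egr2, which was named after its values were seen like the other members of the list below, stood at 12.1, 17.7, 0, 12.5 and 13.6 CPM against 907, 227, 519, 358 and 653 CPM (log2 fold change 5.57 ± 1.18, adjusted p = 0.021), the highest log2 fold change of the 10. Egr3 had a fold change of 4.35 on the log2 scale (SE 1.15, adjusted p = 0.038), Jund 4.04 ± 0.97 (adjusted p = 0.03), Jun 1.92 ± 0.54 (adjusted p = 0.047) and Fosl2 1.92 ± 0.54 (adjusted p = 0.046). Egr1, the family member most used as an activation marker, stood at 103, 315, 402, 626 and 484 CPM against 1700, 886, 1010, 1250 and 538 CPM. Its groups overlapped at unstimulated replicate 16 and stimulated replicate 27, and it did not pass (log2 fold change 1.48 ± 0.52, adjusted p = 0.14).

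The number of calls in this list depended on single libraries. Only Nr4a3 passed without unstimulated replicate 13, 14, 16 or 17, 10 genes passed without replicate 15, and 6, 7, 5, 6 and 6 passed without stimulated replicates 23 to 27 in turn. Fosb and Nr4a3 passed without replicates 26 and 27 together. With library totals none of the 22 passed, at a median of 0.93 where all genes tested had a median of -1.81. DESeq2 called 13 and limma voom 15 of them, none lower.

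**Figure D3:**
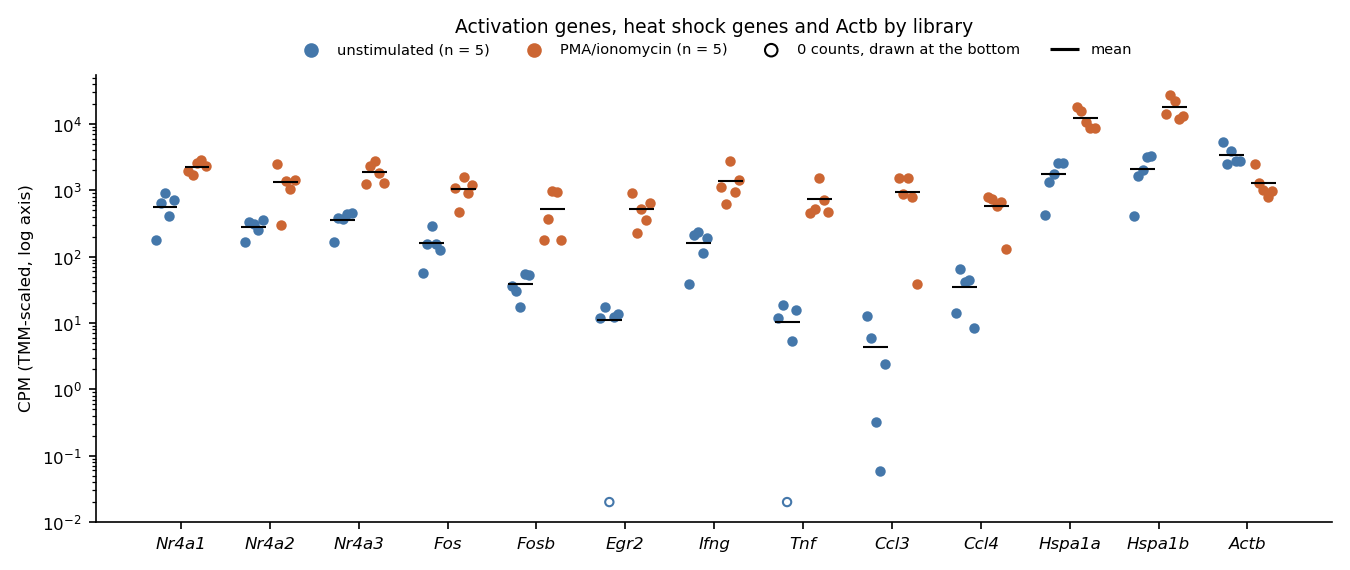
Points are the CPM of the 10 libraries on a log axis for 6 immediate early genes, 4 cytokine and chemokine genes, 2 heat shock genes and Actb, with the mean of each group as a bar and libraries with 0 counts drawn as open circles at the bottom. The stimulated libraries lie above the unstimulated ones for all genes shown except Nr4a2, where 1 library overlaps, and Actb, which is lower.

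Among cytokines and chemokines, 4 of 9 tested genes were called higher and none lower: Ifng, Tnf, Ccl3 and Ccl4. Of the 9, 8 were above 0 and 1 below, with a median log2 fold change of 2.38. Ccl3 and Ccl4 encode chemokines that draw in other immune cells, Tnf encodes an inflammatory cytokine and Ifng encodes interferon gamma. For Tnf, Ifng and Ccl3 the 200 bases before the RefSeq start site on GRCm38.p6 are shown, on the strand of the gene, because these genes moved together. Capitals mark matches, on either strand, to the NFAT core GGAAA, the kappaB pattern (GGG, then any 5 bases, then CC) and the TATA box TATAAA.
Tnf (chr17:35202008-35202207, minus strand): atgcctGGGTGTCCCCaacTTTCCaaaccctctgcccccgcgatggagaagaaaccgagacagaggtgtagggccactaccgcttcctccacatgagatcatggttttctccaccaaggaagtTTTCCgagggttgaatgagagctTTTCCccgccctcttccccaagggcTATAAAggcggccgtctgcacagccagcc
Ifng (chr10:118440846-118441045, plus strand): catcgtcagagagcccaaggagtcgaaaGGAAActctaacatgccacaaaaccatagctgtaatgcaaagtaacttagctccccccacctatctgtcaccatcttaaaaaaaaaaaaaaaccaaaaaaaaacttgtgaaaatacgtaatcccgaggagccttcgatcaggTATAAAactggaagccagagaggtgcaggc
Ccl3 (chr11:83649379-83649578, minus strand): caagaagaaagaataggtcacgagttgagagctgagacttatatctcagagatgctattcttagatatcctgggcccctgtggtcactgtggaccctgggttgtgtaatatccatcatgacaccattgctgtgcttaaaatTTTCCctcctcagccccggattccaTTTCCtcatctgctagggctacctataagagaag
Tnf held 3 GGAAA matches, whose first bases lie 181, 77 and 54 bases before the start, 1 kappaB match at 194 and a TATA box at 29. Ifng held 1 GGAAA match at 172 and a TATA box at 30, and Ccl3 held 2 GGAAA matches at 59 and 34. None of these matches overlapped another, and none of the 3 windows held the AP-1 pattern TGANTCA or the cyclic AMP response element TGACGTCA. Such matches are common by themselves. Of 32817 RefSeq promoters cut to the same length, 47.5% held GGAAA, 41.4% the kappaB pattern, 9.96% TATAAA, 5.48% TGANTCA and 1.47% TGACGTCA. For the 5893 promoters of genes tested here, these shares were 45.3%, 58.8%, 4.26%, 3% and 2.83% in the same order.

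Ccl3 (ENSMUSG00000000982) was close to absent without the stimulus, at 12.7, 5.9, 0.317, 0.0578 and 2.44 CPM, and stood at 1530, 890, 1520, 783 and 38.9 CPM with it. The groups did not overlap, although stimulated replicate 27 was far below the other 4. The log2 fold change was 7.79 ± 1.42 (SE, adjusted p = 0.011), and it passed in all 10 leave-one-out fits, with adjusted p up to 0.044. Tnf (ENSMUSG00000024401) stood at 12.1, 19, 0, 5.31 and 15.7 CPM and at 457, 516, 1550, 718 and 474 CPM, a log2 fold change of 6.15 ± 1.19 (adjusted p = 0.016). Ifng (ENSMUSG00000055170) was already present without the stimulus, at 39.2, 209, 239, 115 and 190 CPM, and stood at 1120, 628, 2760, 954 and 1450 CPM with it (log2 fold change 3.13 ± 0.59, adjusted p = 0.015). Ccl4, named after its values were seen, stood at 14.3, 65.5, 42.0, 44.2 and 8.54 CPM and at 797, 749, 590, 657 and 131 CPM (log2 fold change 4.07 ± 0.80, adjusted p = 0.017). None of the 4 genes overlapped between the groups. Ccl3 and Tnf, like Egr2 above, had unstimulated libraries at or near 0. They passed the low-count filter only with stimulated libraries counted, so their p-values are not independent of that filter. Without unstimulated replicate 16, Ccl3 alone passed (adjusted p = 0.052 for Ifng and for Tnf), and without replicate 13 Ccl4 did not pass (adjusted p = 0.057); the 4 passed without replicates 26 and 27, and Tnf and Ccl3 passed with library totals. Il2 had counts in 1 library of each group and Csf2 in 1 stimulated library, and neither could be tested.

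Genes of the NF-kB pathway, several of which restrain it, also held calls. Of 16 tested NF-kB subunits and feedback genes, 3 were called higher and none lower. Of the 16, 15 were above 0 and 1 below, with a median of 0.99. Nfkbia, which encodes the inhibitor that holds NF-kB in the cytoplasm, stood at 38.8, 20.7, 17.4, 38.5 and 26.7 CPM and at 96.6, 218, 400, 498 and 790 CPM with no overlap (log2 fold change 3.82 ± 0.81, adjusted p = 0.021). The atypical inhibitors Nfkbiz and Nfkbid had log2 fold changes of 3.27 ± 0.86 (adjusted p = 0.037) and 3.41 ± 0.96 (adjusted p = 0.048), and Nfkbid overlapped between the groups. Without unstimulated replicate 13, 14, 16 or 17, without stimulated replicate 27, and with library totals, none of the 16 passed, and the list's median turned to -0.48 with library totals. Of the 17 tested MAP kinase phosphatases and other signalling brakes, Gadd45b alone was called higher (log2 fold change 4.36 ± 1.21, adjusted p = 0.045), and it passed in 1 of 10 leave-one-out fits. Of 13 activation and costimulatory receptors, Tagap, a GTPase-activating protein of T cells, rose from 127, 165, 107, 59 and 197 CPM to 849, 1020, 954, 605 and 644 CPM (log2 fold change 2.63 ± 0.53, adjusted p = 0.019). Tnfrsf18, which encodes the receptor GITR, was called lower, from 10.2, 27, 4.54, 6.99 and 7.37 CPM to counts in 1 library alone, at 0.311 CPM. It entered the test through its unstimulated counts, so its values are given as a description, without a p. Tagap passed in 7 and Tnfrsf18 in 1 of the 10 leave-one-out fits. The highest adjusted p of Tagap was 0.059, without unstimulated replicate 13. Cd69, an early surface marker of activation, stood at 43.8, 181, 21.4, 55.3 and 58.1 CPM against 1100, 30.2, 839, 131 and 62.6 CPM. Its groups overlapped and it did not pass.

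The heat shock genes Hspa1a and Hspa1b rose from a level that was already high. Hspa1b (chr17:34956436-34959238) stood at 416, 1620, 2030, 3220 and 3310 CPM and at 14400, 27400, 22100, 11800 and 13400 CPM (log2 fold change 3.07 ± 0.46, adjusted p = 0.0022). Hspa1a stood at 422, 1340, 1780, 2630 and 2600 CPM and at 17800, 15800, 10900, 8790 and 8760 CPM (log2 fold change 2.82 ± 0.43, adjusted p = 0.0023). Neither gene overlapped between the groups, and both passed in all 10 leave-one-out fits; with library totals Hspa1b passed and Hspa1a had an adjusted p of 0.051. The 2 genes are near-identical neighbours whose reads the counting had to share out, so they are not separate evidence. None of the other 10 heat shock genes tested passed, and the list's median was 0.86. Whether the time at 37 °C bears on these genes was not tested.

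**Figure D4:**
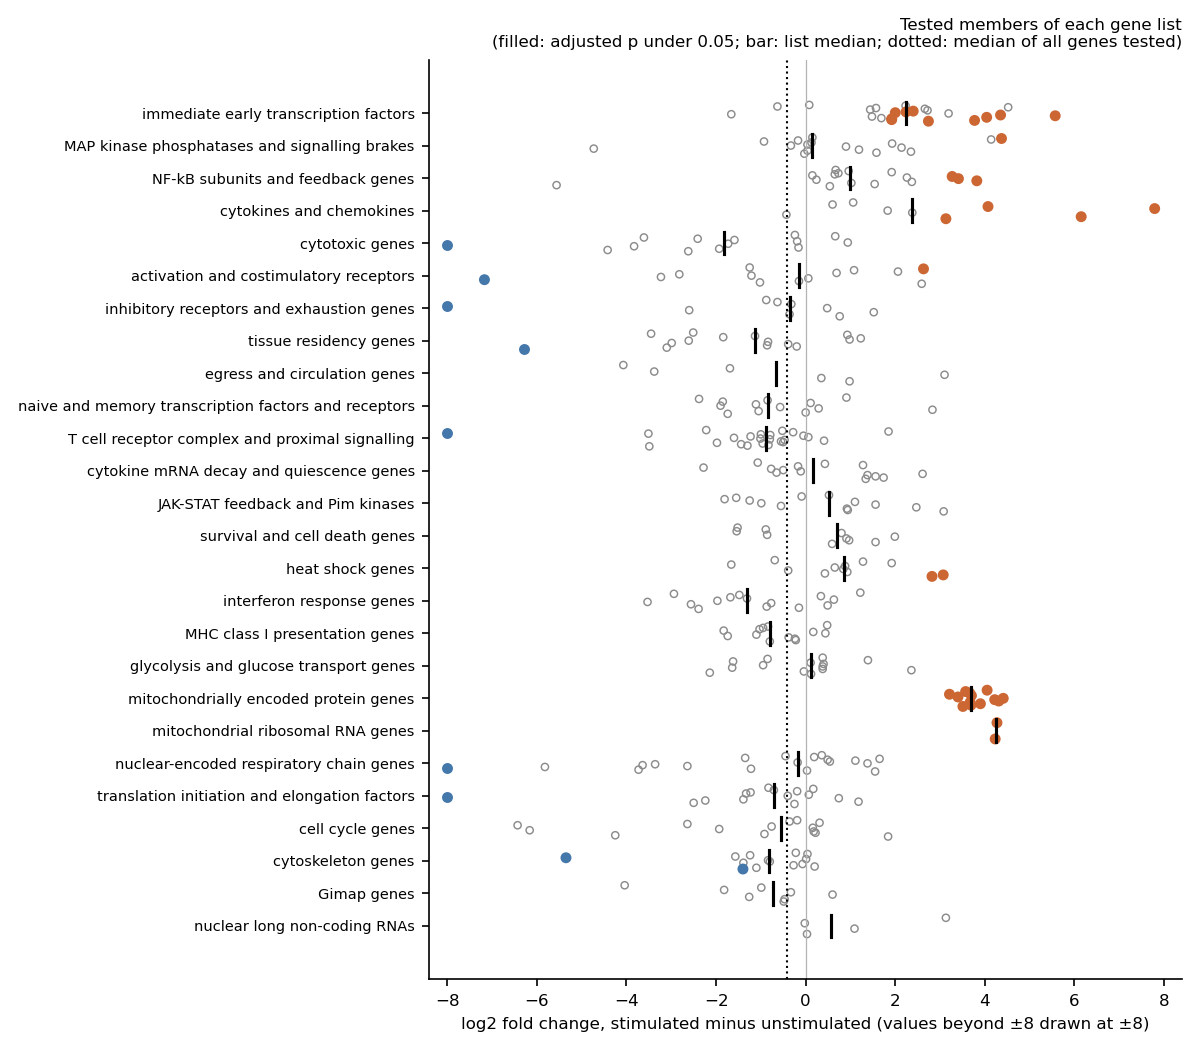
Each point is the log2 fold change of 1 tested gene, stimulated minus unstimulated, in 26 gene lists, filled where the gene passed the test and open where it did not, with the median of each list as a bar and the median of all 6305 genes as a dotted line. Filled points to the right are concentrated in the immediate early, cytokine, NF-kB, heat shock and mitochondrial lists, and filled points at the left edge are genes without a count in the stimulated libraries.

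The mitochondrial transcripts were the most uniform group. All 13 mitochondrially encoded protein genes and both mitochondrial ribosomal RNAs rose, with medians of 3.69 and 4.25, and 12 of the 13 protein genes and both ribosomal RNAs passed in all 10 leave-one-out fits. As a share of all counts, mt-Nd5, a subunit of respiratory complex I, took 0.379%, 0.353%, 0.479%, 0.433% and 0.54% without the stimulus and 2.37%, 3.74%, 3.49%, 2.48% and 2.95% with it (log2 fold change 4.22 ± 0.27, adjusted p = 4e-07). mt-Nd6, the protein gene read from the opposite strand of the mitochondrial genome, took 0.1%, 0.0998%, 0.14%, 0.118% and 0.163% against 0.81%, 1.36%, 1.11%, 0.78% and 0.847% (log2 fold change 4.41 ± 0.32, adjusted p = 9.9e-07). mt-Rnr2, the large ribosomal RNA, took 1.98%, 2.37%, 2.3%, 2.21% and 2.95% against 10%, 15.8%, 13.8%, 19.1% and 24.6%. For all 3 genes every stimulated library was above every unstimulated one. The exception to the group was mt-Nd3, which passed (adjusted p = 0.024) although stimulated replicate 23, at 0.00463%, lay inside the unstimulated range, and which passed in 6 of 10 leave-one-out fits. With library totals 12 of the 13 protein genes still passed, all but mt-Nd3, at a median of 2.21. The 2 ribosomal RNAs made up 44.4%, 46.3% and 44.1% of the mitochondrial counts in stimulated replicates 23 to 25, inside the unstimulated range of 35.7% to 46.1%, but 64.1% and 64.6% in replicates 26 and 27. Of 19 nuclear genes of the respiratory chain tested, none was higher, 1 was lower (Ndufb9, at 0 in all 5 stimulated libraries) and the median was -0.18.

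The lower genes were mainly genes with no count in most stimulated libraries. Of the 263, 146 had no count in any stimulated library and 239 had none in at least 3, while 4 had a count in all 10 libraries. In the whole table, 249 genes had a count in every unstimulated and in no stimulated library, and 5 the reverse. A gene at 0 in every stimulated library entered the test only through its counts in the unstimulated ones, so its values and a bound are given here as a description, without a p. A fold against a group at 0 is given as a lower bound, taken from the mean CPM of 3 counts per stimulated library. Counts outside mitochondrial genes averaged 9795768 without and 2212711 with the stimulus. The median correlation between libraries of a group was 0.661 and 0.399. The bounds allow for depth but not for uneven detection of genes between libraries, whose part in these drops was not tested. Trbc2 (chr6:41546730-41548352), a constant segment of the T cell receptor beta chain, stood at 70.1, 59.7, 19.2, 85.3 and 70.2 CPM and had no count with the stimulus, at least 48.8-fold lower. Tnfsf10, which encodes the death ligand TRAIL, stood at 31.6, 83.7, 30.2, 39.2 and 73.6 CPM and was at least 41.4-fold lower. Entpd1, which encodes the ectonucleotidase CD39, stood at 41.1, 91.2, 11.2, 59.8 and 20 CPM and was at least 35.8-fold lower. The histone gene Hist1h2af, at 591, 118, 393, 32.2 and 109 CPM without the stimulus, was at least 199-fold lower. Eif1ax, a translation initiation factor, was at least 78.4-fold lower. The other genes with the largest drops, at 0 in every stimulated library, were Slfn9, Rwdd1, Casp8ap2, Zfp26, Tomm70a, Dut, Vwa5a and Cbx5, at least 57.4-fold to 130-fold lower.

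Itga1, the alpha chain of the collagen receptor VLA-1 that marks resident memory cells, was the lower gene of the residency list. It stood at 33.7, 261, 714, 217 and 115 CPM and at 0.58, 0.934, 2.91, 11.7 and 0.949 CPM (log2 fold change -6.28 ± 1.33). It entered the test through its unstimulated counts, so its values are given as a description, without a p. Its groups did not overlap, and it passed in 8 of 10 leave-one-out fits. Of the 15 residency genes tested, none was called higher and 1 was called lower. Of the 15, 3 were above 0 and 12 below, and the median was -1.13. Actb and Myl6, which encode beta actin and a myosin light chain, were the lower genes of 14 cytoskeleton genes. Actb stood at 5400, 2480, 3880, 2820 and 2790 CPM and at 2480, 1300, 1030, 789 and 974 CPM, so that stimulated replicate 23 met the lowest unstimulated value (log2 fold change -1.40 ± 0.38, adjusted p = 0.04; 0.14 without unstimulated replicate 13). For Myl6 the log2 fold change was -5.35 ± 1.27 (adjusted p = 0.03). Without unstimulated replicate 13, 14, 16 or 17 neither gene passed, and without replicate 15 Myl6 alone passed.

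Most lists of T cell genes held few or no calls. Of 24 genes of the T cell receptor complex and its signalling, Trbc2 was the single call and the median was -0.90, below that of all genes. Their summed CPM ran from 5320 to 7570 without and from 2550 to 3430 with the stimulus, so that the sums did not overlap. Of 14 cytotoxic genes, Tnfsf10 alone passed, with a median of -1.83. Gzmb, which encodes granzyme B, stood at 1200, 187, 154, 184 and 189 CPM against 0.29, 77.8, 0.583, 9.35 and 0.949 CPM, without overlap, and did not pass. No member passed among 15 interferon response genes (median -1.31), 13 MHC class I genes (-0.80), 14 glycolysis genes (0.12), 14 genes of cytokine mRNA decay (0.16), 13 of JAK-STAT feedback (0.52), 10 of survival (0.70), 14 of the cell cycle (-0.56), 8 Gimap genes (-0.74), 6 egress genes (-0.67), 13 naive and memory genes (-0.85) and 4 nuclear long non-coding RNAs (0.56). Cd200r1, which encodes the receptor in the series title, stood at 16.1, 0, 0, 1.33 and 3.25 CPM without the stimulus and at 0 in all 5 stimulated libraries, and it had too few counts to be tested.

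Markers of other cells were examined as lists. The choroid plexus list summed to 0 to 9.5 CPM without and 117 to 1060 CPM with the stimulus, while Folr1 and Aqp1 were at 0 in all 10. Ttr, which encodes transthyretin, was called higher (log2 fold change 7.75 ± 1.88). It had no count in 3 unstimulated libraries and entered the test through its stimulated counts, so no p is given. No gene passed in the lists for microglia, astrocytes, neurons, endothelium, B cells, antigen presenting cells, CD4 cells, NK and gamma delta T cells, neutrophils, red blood cells and sex-linked genes. The part of such RNA in the other differences was not tested.

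The response was set beside that of male spleen, a comparison in which tissue and sex cannot be told apart. Title style differs with them, since of the female brain libraries only stimulated replicates 26 and 27 have the style of the spleen titles. Of the 121 higher genes, 103 were tested in spleen and 82 of them were called higher there (79.6%, where 12.6% of all genes tested in spleen were called higher), and 2 were called lower. In the other direction, 82 of the 1198 genes called higher in spleen and tested in female brain were called higher there (6.84%). Of all genes tested in female brain, 1.92% were called higher. Of the 262 lower genes tested in spleen, 25 were called lower (9.54%, against 6.12% of all genes) and 12 higher. In spleen all 25 immediate early genes tested were called higher, with a median of 5.89. In the brain 10 of 22 were called higher and 20 were above 0, with a median of 2.23.

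The difference between the responses was tested directly with an interaction term, and 1856 of 11654 genes passed (15.9%), 227 with the higher response in brain (1.95%) and 1629 with the higher response in spleen (14%). Nr4a1 had a response 7.12 lower in brain on the log2 scale (difference -7.12, adjusted p = 1.3e-08). On 1 common scale for the aged groups, its median level with the stimulus was 2710 CPM in female brain (1840 to 3130) and 2190 CPM in spleen (1820 to 3170), so that the stimulated levels overlapped. Without the stimulus the medians were 750 CPM in female brain (204 to 1050) and 4.55 CPM in spleen (2.59 to 5.11). Nr4a3 (difference -6.29, adjusted p = 4.6e-07) had the same pattern, at 440 and 7.39 CPM without and 2040 and 2910 CPM with the stimulus. Nr4a2 differed by -5.51 (adjusted p = 1.7e-06). For Egr1 (difference -6.40, adjusted p = 6.5e-08) the levels differed at both ends, at 470 and 11.9 CPM without and 1190 and 2720 CPM with the stimulus. Tnfaip3, which encodes the NF-kB inhibitor A20, did not pass in brain (adjusted p = 0.92), at 848 CPM without and 753 CPM with the stimulus, and went from 71 to 3100 CPM in spleen (difference -5.34, adjusted p = 6.5e-08). Ifng also differed (-4.23, adjusted p = 0.00012). Tnf and Ccl3, which started from low levels in both tissues, did not pass, with differences of -0.53 ± 1.04 (SE, adjusted p = 0.8) and 1.15 ± 1.17 (SE, adjusted p = 0.56), which does not show that their responses were alike.

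**Figure D5:**
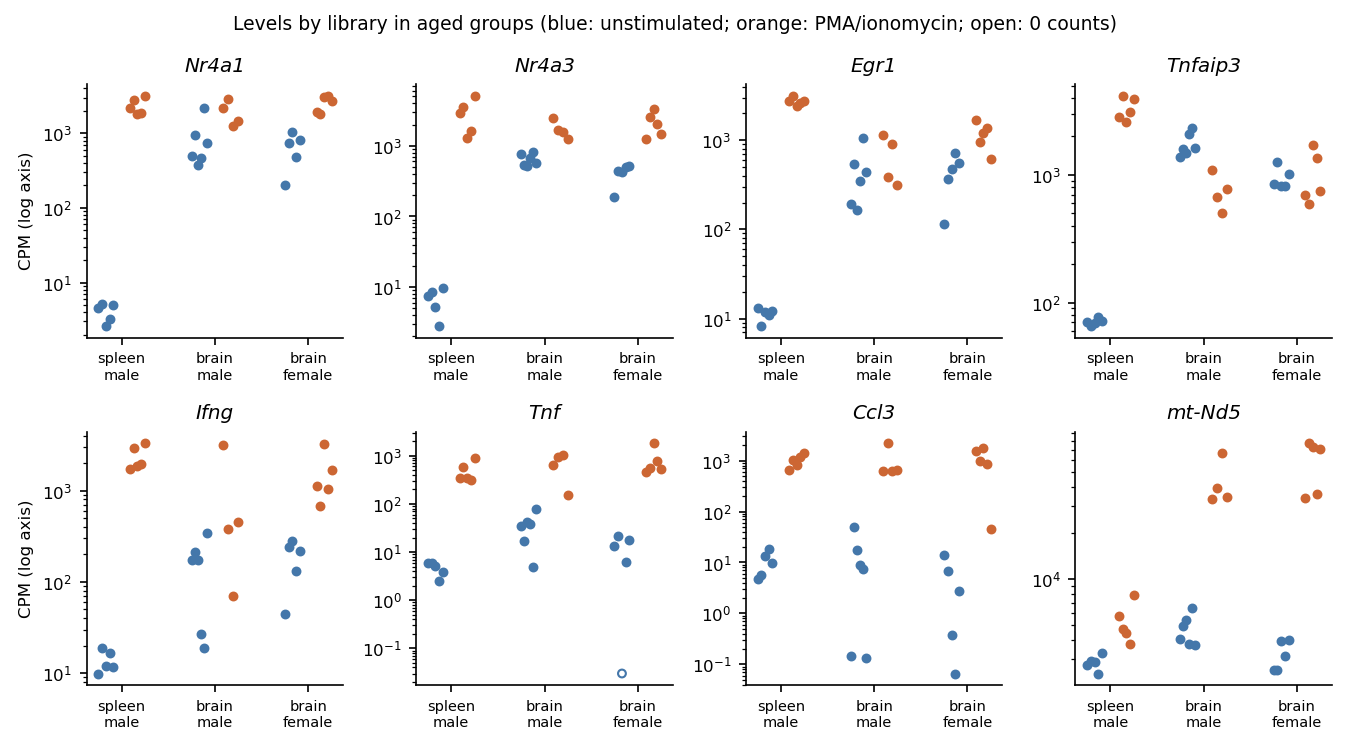
Points are the CPM of single libraries on a log axis, scaled over the aged groups together, for 8 genes in male spleen, male brain and female brain, unstimulated in blue and stimulated in orange. For Nr4a1, Nr4a3, Egr1, Tnfaip3 and Ifng the unstimulated libraries of the female brain lie above those of the spleen, and for mt-Nd5 the stimulated brain libraries lie above the stimulated spleen libraries.

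Mitochondrial genes went the other way. The response of mt-Nd5 was 3.37 higher in brain than in spleen (adjusted p = 4.6e-07), that of mt-Nd6 3.57 higher (adjusted p = 1.7e-06), mt-Co2 2.88 (adjusted p = 1e-05), mt-Nd4 2.81 (adjusted p = 1.1e-05) and mt-Co1 2.42 (adjusted p = 2.5e-05). All 13 mitochondrial protein genes rose in spleen as well, with a median of 0.95 against 3.69 in female brain. In male brain 12 of the 13 were called higher, with a median of 3.33. Both mitochondrial ribosomal RNAs were called higher there too, with a median of 3.02.

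The male brain comparison is closer in tissue, but its 2 groups differ in the numbering of their titles, so that stimulus and library set cannot be told apart there. Of 116 higher genes tested in male brain, 79 were called higher (68.1%, against 1.75% of all genes tested there, of which 38.1% were called in either direction), and these were 68.7% of the 115 genes called higher in male brain and tested in female brain. Of 236 lower genes, 138 were called lower (58.5%, against 36.4%), which is 7.39% of the 1867 called lower in male brain and tested in female brain. In female brain 1.92% of all genes tested were called higher and 4.17% lower. The difference in response from male brain did not pass for any of the 4 cytokine genes or the 3 Nr4a genes, for example Nr4a3 by 0.80 (adjusted p = 0.65), Ifng by 0.29 (adjusted p = 1.0) and Tnf by 1.72 (adjusted p = 0.52). A difference that did not pass does not show that the responses were alike. The interaction passed for 261 of 10026 genes (2.6%), 205 higher and 56 lower in female brain. The genes with the smallest p were genes at or near 0 in 1 group. Taf15, an RNA-binding protein, stood at a median of 480 CPM without and 89.1 CPM with the stimulus in female brain, and went from 502 CPM to 0 in all 4 stimulated male libraries. Serpina3g and Inpp4b were likewise at 0 in all 4 stimulated male libraries, with medians of 495 and 68.7 CPM in the stimulated female libraries.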

How the data were processed

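Counts per gene of 35 libraries came from the deposited table of the series, which equals the expected counts of the authors' sample files to within 0.5. Per the submitters' processing notes, Bowtie2 2.2.0 and RSEM 1.2.12 with mm10 were used. The expected counts and TPM values of the sample files are as deposited by the authors, and no source used here names the annotation release or strand setting. RSEM shares reads between near-identical genes. Positions come from GENCODE M21 (GRCm38), which matched 37607 of 38924 genes.

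Genes were kept by filterByExpr (minimum count 10), scaled with TMM and tested with edgeR 4.0.16 (robust quasi-likelihood F test, Benjamini-Hochberg adjustment over all genes tested, adjusted p under 0.05) on the 10 libraries, in R 4.3.3. SE is the absolute log2 fold change divided by the square root of F. Differences in response used an interaction contrast over 4 groups. The procedure was tested on simulated counts. Levels across the aged groups used 1 TMM scaling over those libraries. Single library values were compared with exact permutation tests (SciPy 1.17.1). Alternatives used DESeq2 1.42.0, limma 3.58.1 and other scalings, filters and sample sets. Replicates were not duplicates: the smallest chi-square per degree of freedom between 2 libraries was 140. Depth ranged from 2216762 to 14866050 counts, and the spread between libraries is the error used.

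The comparison, the 39 gene lists and the tests were chosen with earlier results of these data known. Genes were named by rule: in each list up to 3 called members per direction by adjusted p, else the 3 with the highest mean CPM and up to 2 without overlap; over all genes the 10 largest changes per direction at a mean of at least 10 CPM without overlap; and for each interaction the 5 smallest adjusted p per direction. Predicted genes, small RNAs, pseudogenes and receptor V, D and J segments were left out of the ranking. Some items are not reported here.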

Additional observations from a re-analysis of the deposited data

Results flagged for a closer look

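In groups of 5 libraries, a library was singled out when its gap to the next value exceeded 0.71 of the group's range (Dixon's criterion). For normally distributed values chance does so in about 1 in 20 groups, and CPM values need not keep to that rate. Where every other library of the group is at 0, as for Tnfrsf18 with the stimulus, any count meets the criterion. Among the stimulated libraries these were Tnf in replicate 25 (1550 CPM), Tnfrsf18 in replicate 24 (0.311 CPM), Itga1, Ly6c2 and Top2a in replicate 26 (11.7, 57.1 and 58.5 CPM), Gimap9 in replicate 24 (33.6 CPM), and Frrs1l, Rgs7bp and Fosl2 in replicate 27 (152, 206 and 1510 CPM). Among the unstimulated libraries these were Tnfrsf18 in replicate 14 (27 CPM), Fgl2 in replicate 16 (293 CPM), Top2a in replicate 13 (507 CPM), Nav2 in replicate 17 (0.712 CPM), and Vwa5a and Egr3 in replicate 15 (209 and 76.0 CPM).

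The response to the stimulus differed between female and male brain by the interaction term for the genes with the smallest p. The fitted differences on the log2 scale were 14.31 for Taf15, 15.72 for Serpina3g, 10.27 for Hnrnpa1, 13.61 for Inpp4b and 14.36 for Ttc3, and -21.99 for Ipp, -12.41 for Hist1h2af, -19.17 for Aph1a, -20.19 for Gtse1 and -10.13 for Pabpc4. For each of these 10 genes at least 1 library, in most cases a whole group, was at 0, so that the fitted size depends on the prior count and is no bound. Ipp, Aph1a and Gtse1 were at 0 in 3 of 4 stimulated male libraries and stood at 555, 134 and 456 CPM in the remaining one.

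Between female brain and male spleen the interaction term gave 3.37 for mt-Nd5, 3.57 for mt-Nd6, 2.88 for mt-Co2, 2.81 for mt-Nd4 and 2.42 for mt-Co1, and -7.12 for Nr4a1, -5.34 for Tnfaip3, -6.40 for Egr1, -6.29 for Nr4a3 and -5.51 for Nr4a2.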

How the results depend on the processing

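No paired analysis was possible because the groups compared share no replicate number. The reported fit gave 121 higher and 263 lower genes. Higher and lower calls were 49 and 487 with library totals, 267 and 611 with DESeq2 (878 in all), 233 and 1127 with limma voom and quality weights (1360), 322 and 382 without a low-count filter (704), 102 and 12 among genes with at least 10 counts in at least 8 libraries (114), 105 and 549 in a fit of the 4 aged brain groups (654), 485 and 2064 in a fit of all 35 libraries (2549), and 49 and 86 without replicates 26 and 27 (135). Leaving out 1 library gave 49 to 596 calls, 35 to 114 higher and 14 to 486 lower. For the difference from male brain the 1 library left out gave 23 to 377 calls (16 to 323 higher, 7 to 56 lower) and DESeq2 gave 1550 (1236 and 314). For the difference from spleen it gave 1824 to 2443 (247 to 386 and 1438 to 2195), and DESeq2 called 433 higher. The other scalings and the rounded expected counts stayed within 1.5 times of the reported counts. Without replicates 26 and 27 the differences in total counts (-4218799), genes with a count (-3926) and nuclear long non-coding RNA share (-0.226 percentage points) no longer passed; leaving out 1 library, they ran from -6749362 to -4696485, -4750 to -3188 and -0.284 to -0.22, and the mitochondrial share from 45.2 to 52.2, the share of the 50 most abundant genes from 38.2 to 43.2 and the ribosomal protein share from -6.96 to -5.69. Stat3, which had not passed, turned from 1.1 to -0.34 with library totals; no called gene named here changed sign under any setting. The cause of these changes was not tested. Outside mitochondrial genes the shallowest stimulated library held 671051 counts, which limits the detection of low transcripts in it.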

Other observations

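Of the 121 higher genes, 46 outside the mitochondrial genome were predicted genes, small RNAs, pseudogenes or similar entries, against 13 of the 263 lower genes. The share of such entries among all genes tested was not counted, so these counts are given as a description. The genes in this paragraph were picked after their values were seen. Not all of these entries are separate evidence. Rnu1a1, Gm23804, Gm26444, Gm25679, Gm22317, Gm22068 and Gm22634 had identical CPM in every library, and so did the Metazoa_SRP entries. Gm10717, Gm10719, Gm10720, Gm10721, Gm11168 and Gm17535 lie within the span of Gm26870 on chromosome 9. The counts of 46 and 121 are therefore counts of entries. Gm26870, annotated as a long non-coding RNA, stood at 11.7, 31.4, 27.2, 55.6 and 60.2 CPM without the stimulus and at 8390, 9820, 7360, 9130 and 18200 CPM with it (log2 fold change 8.15 ± 0.54, adjusted p = 4e-07). Gm10800 stood at 2.85, 7.76, 22.7, 1.68 and 8.39 CPM and at 2090, 2480, 2340, 2290 and 4370 CPM (log2 fold change 8.29 ± 0.79, adjusted p = 1.3e-05). Rmrp, the RNA of a ribonuclease, stood at 48, 88.2, 22.6, 100 and 85.8 CPM and at 1040, 1600, 799, 917 and 1330 CPM (log2 fold change 4.04 ± 0.57, adjusted p = 0.0009). All 3 passed in every leave-one-out fit, and none overlapped between the groups. Small structural RNA genes took 0.352% ± 0.0867 of the non-mitochondrial counts without and 2.92% ± 1.08 with the stimulus (SD, n = 5 each, exact permutation p = 0.00794), and protein-coding genes 89.6% ± 0.87 and 81.6% ± 2.06 (exact permutation p = 0.00794). These shares were measured after seeing the data.

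Several of the higher genes with the largest fold changes were near 0 in the unstimulated libraries. They entered the test through their stimulated counts, so their values are given as a description, without a p from this comparison. Pax6, a factor of eye and brain development, stood at 0.931, 0.759, 0, 0.578 and 0 CPM and at 25.5, 67.5, 35.9, 65.1 and 66.4 CPM (log2 fold change 6.80 ± 1.78). Hoxd11, a limb patterning gene, stood at 0 to 0.127 CPM and at 4.34 to 19.9 CPM (log2 fold change 7 ± 1.61). Frrs1l, Nav2, Mylk4, Rgs7bp and Rhox8 were likewise under 2 CPM in every unstimulated and above 8 CPM in every stimulated library. In spleen Mylk4, Rhox8 and Pax6 were also called higher, by 2.69 (adjusted p = 0.0066), 2.00 (adjusted p = 0.0065) and 2.48 (adjusted p = 0.016).

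At the non-mitochondrial depth of the shallowest library, 671051 counts, the expected number of genes with a count was 8229 ± 1770 without and 5124 ± 1092 with the stimulus (SD, n = 5 each, exact permutation p = 0.0159), a measure added after seeing the data. The median Spearman correlation between libraries of a group, across genes, was 0.661 without and 0.399 with the stimulus. Xist stood at 77.1 to 126 CPM in the unstimulated libraries and at 278, 50.1, 87, 74.8 and 0 CPM in the stimulated ones, and replicate 27 was the library at 0. Of the 4 Y-linked genes examined, Ddx3y was at 0 in all 10 libraries and each of the others had counts in 1 library: Eif2s3y in unstimulated replicate 17 (0.102 CPM), Uty in stimulated replicate 26 (0.334 CPM) and Kdm5d in stimulated replicate 27 (0.949 CPM).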
